A study of Mus musculus with 9 samples.

Results

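Semaphorins, plexins and neuropilins are the ligands and receptors of one guidance system, and their transcripts were followed here in the medial ganglionic eminence (MGE), the ventral forebrain zone where many cortical interneurons are born. The genes were taken by name, not by their values, though earlier results of these data were known. They are 20 semaphorins, 9 plexins and 2 neuropilins, 31 of the 48526 gene identifiers in the table. RNA sequencing covered 9 libraries of C57BL/6 mouse MGE at embryonic day 14.5, 4 control and 5 Ctnnb1 knockout. All 9 carry Nkx2.1-cre, a recombinase driven by a gene of MGE progenitors, and Rosa26-YFP, a fluorescent reporter. The knockouts are Nkx2.1-cre; Ctnnb1fl/fl; Rosa26-YFP. Control replicates 1 to 3 are Nkx2.1-cre; Rosa26-YFP and control replicate 4 is Nkx2.1-cre; Ctnnb1fl/wt; Rosa26-YFP, so it can lose 1 copy of the gene. Deletion is limited to cells with a history of Cre, and other cells of the tissue keep Ctnnb1. The labels do not say whether whole tissue or cells collected from it were used for each library. Nor do they tie each library to its own embryo. The p-values therefore rest on the spread between the libraries alone, and that spread may be technical.

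Semaphorins share a large extracellular sema domain and fall into classes by the rest of the protein. Vertebrate class 3 members are secreted, classes 4, 5 and 6 span the membrane and class 7 is held by a lipid anchor. Plexins are the signalling receptors, with an intracellular GTPase-activating domain; most class 3 ligands bind a neuropilin, which then works with a plexin A. In the ventral forebrain, class 3 semaphorins made in the developing striatum are known to repel migrating interneurons that carry neuropilins, steering them towards the cortex. Beta-catenin, the product of Ctnnb1, works with TCF/LEF factors in Wnt signalling and also joins cadherins to actin.

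The table holds normalized counts. If the smallest step between the values of a library is taken as 1 read, the libraries held 5120585 to 5569444 reads each; these totals are inferred from the values. Ctnnb1 was at 9545 to 9967 in control and 5477 to 7661 in knockout, -0.54 on the log2 scale (SE 0.0960, limma adjusted p = 0.000811). Permuting the library labels, exact and two-sided, gave p = 0.00794, the minimum for 4 against 5 libraries. Of postmitotic MGE neurons, 13 genes were listed, such as Lhx6, a factor that specifies these interneurons. Each was above 0 in every library. The cortical and dorsal genes described below were too, so this does not test the tissue label. The summed level of the 13 MGE neuron genes was 7612 to 14360 in control and 19420 to 25330 in knockout, and 12 of 13 rose. The 13 general markers of postmitotic neurons summed to 17390 to 21950 in control and 30880 to 40100 in knockout, and 8 of 13 rose with 0 that fell. Markers of radial glia and other ventricular progenitors summed to 36990 to 43980 and 18440 to 28270, and 9 of 14 fell with 0 that rose. The part of these shifts in the results below was not tested. In bulk RNA, a change in the number of cells of a type and a change in RNA per cell cannot be told apart. Control replicate 1 stood apart: 13 genes of cortical neurons and dorsal progenitors summed to 3718 in it. The remaining controls ranged from 230.2 to 319.5 and the knockouts from 364.1 to 1003, and 0 of the 13 passed the test. Its choroid plexus markers summed to 2963, with 165.2 to 738.6 in the other 8 libraries.

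More of the family rose than fell in knockout, and 13 of the 16 genes that passed were ligands. Of 31 genes, 29 had a mean of at least 10 normalized counts and were tested. At an adjusted p under 0.05, 11 rose and 5 fell, 55.2% of the 29, against 34.5% of all 13780 genes tested. The share that rose was 37.9% against 17.2% of all genes, and the share that fell was 17.2% against 17.3%. The median log2 fold change was 0.37 for the family and -0.01 for all genes tested. Of the 19 ligands tested, 8 rose and 5 fell (68.4%). Of the 10 receptors, 3 rose and 0 fell (30%), near the 34.5% background for both directions together. By direction, 30% rose against 17.2% of all genes and 0% fell against 17.3%, on 10 genes only. For 11 members every knockout library was above every control and for 4 every one was below, against 14.5% and 14.6% of all genes tested. Sema3d (4.02 to 15.2 in control, 1.91 to 12.1 in knockout) and Plxnb3 (0 to 3.01 and 0 to 1.98) were too low to be tested.

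**Figure D1:**
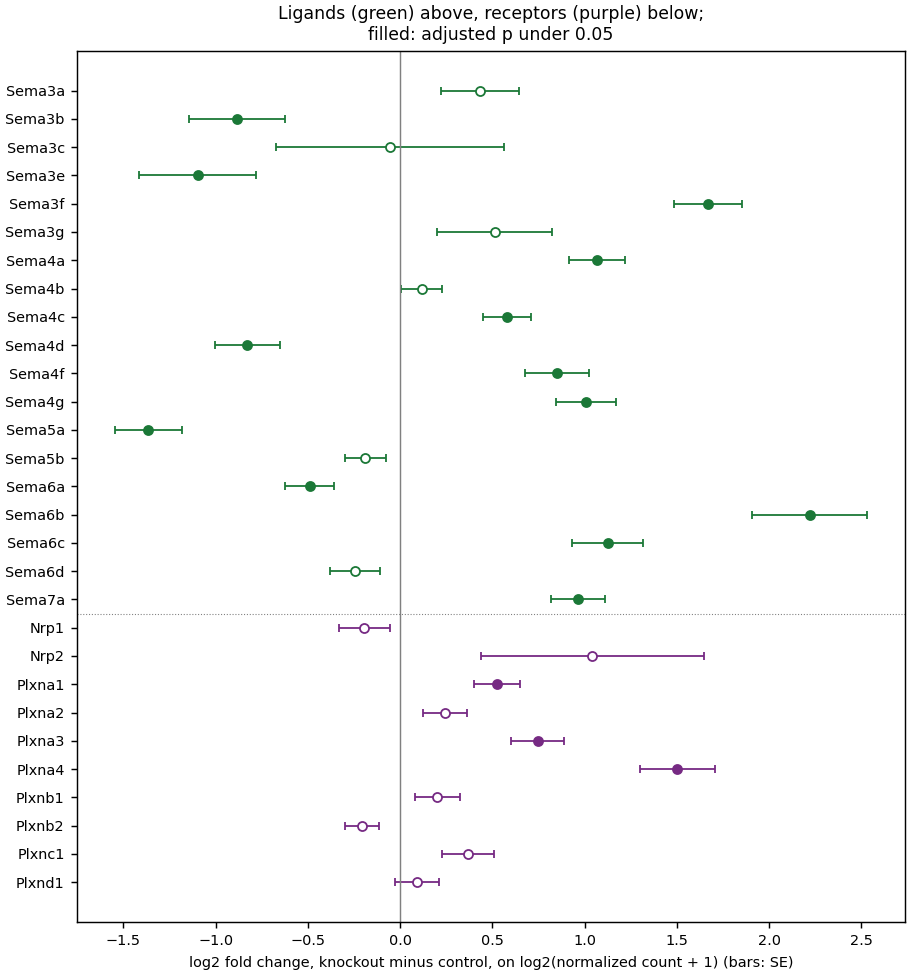
Log2 fold change of the 29 tested members, knockout minus control on log2(normalized count + 1), with SE bars; ligands are green, receptors purple, and filled points have an adjusted p under 0.05. Filled ligands lie on both sides, from -1.36 (Sema5a) to 2.22 (Sema6b), and all 3 filled receptors are plexin A genes to the right of 0.

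Among the secreted class 3 ligands, Sema3f rose and Sema3b and Sema3e fell. Sema3f (ENSMUSG00000034684, chr9:107681500-107710475), a repellent that binds neuropilin-2, stood at 75.8, 86.4, 65.3 and 93.7 normalized counts in control replicates 1 to 4 and at 212, 179, 269, 295 and 362 in knockout replicates 1 to 5, the order used throughout. Positions are on mm10. Every knockout was above every control, with a difference of 1.67 on the log2 scale (SE 0.184, adjusted p = 6.19e-05). Sema3e (ENSMUSG00000063531, chr5:14025276-14256689), which can bind plexin-D1 without a neuropilin, was at 15.2, 18.9, 17.1 and 19.9 in control and at 9.89, 9.62, 8.02, 3.83 and 9.07 in knockout. The groups did not overlap, but the counts were low, and Sema3e changed by -1.10 on the log2 scale (SE 0.316, adjusted p = 0.0150). Sema3e missed the threshold when control replicates 1 and 4 were both left out (adjusted p = 0.0828). Sema3b (ENSMUSG00000057969, chr9:107597674-107609229), a neuropilin ligand, was at 40.4, 20.9, 24.1 and 29.9 in control and at 14.8, 16.4, 17.1, 16.3 and 10.1 in knockout (log2 fold change -0.88, SE 0.259, adjusted p = 0.0164). Sema3b was highest in control replicate 1, and without that library it no longer passed (-0.71, adjusted p = 0.0617).

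The other class 3 genes did not pass. Sema3a, the classical growth cone repellent and a ligand of neuropilin-1, was at 22.1 to 41.4 in control and 37.5 to 55.5 in knockout (log2 fold change 0.43, adjusted p = 0.127). Sema3g, a ligand known from blood vessels, was at 8.09 to 27.9 and 18.1 to 27.7. The summed level of 11 endothelial markers was 1781 to 2503 in control and 1942 to 2329 in knockout. Sema3c, a neuropilin ligand that cortical cells also make, reached 66.7 in control replicate 1 and 43.3 in knockout replicate 5. The remaining 7 libraries ranged from 6.03 to 15.9. Control replicate 1 and knockout replicate 5 also held the highest summed cortical markers of their groups, 3718 and 1003. Their pericyte and meningeal sums were the highest too, 2440 against 1216 to 1957 in control and 4042 against 1296 to 1926 in knockout. The part of either list in the Sema3c values was not tested. Without control replicate 1 the log2 fold change of Sema3c moved from -0.05 to 0.59 (adjusted p = 0.343).

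Upstream sequence was available for 26 of the 31 members in RefSeq windows of build GRCm38.p6, and was searched because beta-catenin acts through TCF/LEF factors. There was none for Sema3b, Sema3f, Sema6a, Plxna1 and Plxna4. All of these passed the threshold, so the search leaves out part of the changed genes. A RefSeq start can lie inside an annotated gene, and some windows hold exon sequence. The letters CTTTGAA and CTTTGAT were looked for on both strands in the 250 bases before each start. They occurred in 2 of 37 member windows (5.41%), against 7.48% of all 32851 windows. One is Sema3e, chr5:14025026-14025275, plus strand, whose window is shown whole with the match, at position -119 from the start, in capitals:
Sema3e: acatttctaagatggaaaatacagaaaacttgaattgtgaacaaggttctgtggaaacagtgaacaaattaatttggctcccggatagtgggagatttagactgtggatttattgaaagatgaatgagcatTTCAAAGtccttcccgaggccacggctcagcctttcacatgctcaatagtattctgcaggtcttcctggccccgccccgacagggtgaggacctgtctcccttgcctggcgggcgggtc
The letters CAAGTG, a core that NKX2-1 and its relatives bind, do not overlap the TCF/LEF letters. They occurred in 1 member window (2.70%) against 11.6% of all windows. That window was of Sema3c, and all 250 of its bases lie in annotated exon, since the annotated gene starts earlier, at chr5:17574281. The part printed is chr5:17574726-17574751, plus strand, with the match at position -80 from the RefSeq start in capitals:
Sema3c: ggcgcccggcCACTTGccattcactc
A match says only that these letters are present.

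Class 4 ligands span the membrane and act largely through plexin B receptors. Of 6 genes, 4 rose, 1 fell and 1 did not pass, where 17.2% of all genes tested rose and 17.3% fell. Sema4a (ENSMUSG00000028064, chr3:88435959-88461182), also known for roles in immune cells and the retina, went from 71.8, 84.4, 97.5 and 77.7 normalized counts in control to 156, 134, 184, 188 and 220 in knockout (log2 fold change 1.07, SE 0.151, adjusted p = 0.000217). Sema4g (ENSMUSG00000025207, chr19:44989101-45003397) went from 299, 415, 456 and 281 to 645, 636, 663, 710 and 973 (1.01, SE 0.163, adjusted p = 0.000688), with knockout replicate 5 well above the rest. Sema4f (ENSMUSG00000000627, chr6:82911885-82939769), at 25.3 to 29.9 in control and 43.5 to 61.5 in knockout, rose by 0.85 (SE 0.176, adjusted p = 0.00217). For all 3 genes the groups did not overlap.

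Sema4c (ENSMUSG00000026121, chr1:36548639-36558349), a ligand of plexin-B2, was at 356, 587, 503 and 432 in control and 677, 580, 770, 717 and 726 in knockout. Its rise of 0.58 (SE 0.131, adjusted p = 0.00388) came with overlap, since control replicate 2 was above knockout replicate 2. Set against control replicates 2 and 3 alone, the rise was 0.34 and missed the threshold (adjusted p = 0.0619). Sema4d (ENSMUSG00000021451, chr13:51685529-51793747), the high-affinity ligand of plexin-B1, went the other way, from 100.1, 68.5, 79.4 and 70.7 to 42.5, 51.0, 36.1, 54.5 and 38.3 (log2 fold change -0.83, SE 0.178, adjusted p = 0.00283). Every knockout was below every control for Sema4d. Sema4d is also made by immune and oligodendrocyte-lineage cells. The summed level of 11 microglial markers was 361.5 to 535.7 in control and 251.8 to 478.6 in knockout, and 0 of the 9 tested passed. Of 5 oligodendrocyte precursor markers, 1 rose (Olig1, 0.48) and 1 fell (Olig2, -0.93), and the other 3 had positive values that did not pass. Their sum, 1387 to 1842 in control and 908 to 1271 in knockout, was mostly Olig2, which ventral progenitors also express. The part of these cells in the Sema4d values was not tested. Sema4b, expressed in brain and other tissues, was at 169 to 199 in control and 179 to 231 in knockout and did not pass (adjusted p = 0.434).

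The class 5 pair, which carry thrombospondin repeats and bind plexin-A1 and plexin-A3 in the retina, differed: 1 fell and 1 did not pass. Sema5a (ENSMUSG00000022231, chr15:32244810-32696341) was at 177, 158, 173 and 121 in control and 75.2, 67.3, 43.1, 68.9 and 50.4 in knockout. No library crossed between the groups, and the fall was the largest of the family (log2 fold change -1.36, SE 0.180, adjusted p = 0.000142). Sema5b, far more abundant, was at 1069 to 1576 in control and 1098 to 1323 in knockout (-0.19, adjusted p = 0.205). Its lowest control was replicate 1, and without that library it passed (-0.30, adjusted p = 0.0313).

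Sema7a (ENSMUSG00000038264, chr9:57940112-57962865), the lipid-anchored ligand of plexin-C1 and beta-1 integrin, was at 98.0, 108, 95.5 and 81.7 in control and 172, 149, 251, 185 and 192 in knockout. All knockouts were above all controls, by 0.96 on the log2 scale (SE 0.147, adjusted p = 0.000332). Its receptor genes did not pass: Plxnc1 had a log2 fold change of 0.37 (adjusted p = 0.0590), and Itgb1, the integrin subunit, one of -0.20 (adjusted p = 0.103).

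Class 6 ligands, which signal to plexin A receptors without a neuropilin, split by gene. Sema6b (ENSMUSG00000001227, chr17:56123085-56140343) had the largest rise of the family, from 36.4, 38.7, 38.2 and 33.9 normalized counts in control to 162, 79.8, 182, 215 and 321 in knockout (log2 fold change 2.22, SE 0.311, adjusted p = 0.000468). The controls lay within 5 counts of each other, while the knockouts ranged widely and all stood above them. Sema6c (ENSMUSG00000038777, chr3:95160457-95174024) went from 523, 923, 815 and 599 to 1279, 1285, 1561, 1451 and 2174 (1.12, SE 0.193, adjusted p = 0.00142), again without overlap. Sema6a, a ligand of plexin-A2 and plexin-A4, went down, from 252, 321, 304 and 423 to 233, 233, 205, 255 and 212 (-0.49, SE 0.132, adjusted p = 0.0106). For Sema6a, control replicate 1 lay below knockout replicate 4. Sema6d, a ligand of plexin-A1, was at 382 to 567 in control and 356 to 529 in knockout and did not pass (-0.24, adjusted p = 0.175); without control replicate 4 it did (-0.38, adjusted p = 0.0371). Sema6b, the gene with the largest rise, had upstream windows at separate starts, and none held the letters searched. The window at chr17:56133853-56134102 had 5 CG pairs and is not shown. The window at chr17:56140344-56140593, minus strand, is shown with its 20 CG pairs in capitals:
Sema6b: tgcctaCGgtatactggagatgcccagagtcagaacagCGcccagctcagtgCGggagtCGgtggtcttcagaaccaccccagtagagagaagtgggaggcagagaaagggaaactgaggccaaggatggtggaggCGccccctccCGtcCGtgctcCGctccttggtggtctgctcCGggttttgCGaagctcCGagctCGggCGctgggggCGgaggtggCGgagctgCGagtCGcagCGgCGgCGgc

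**Figure D2:**
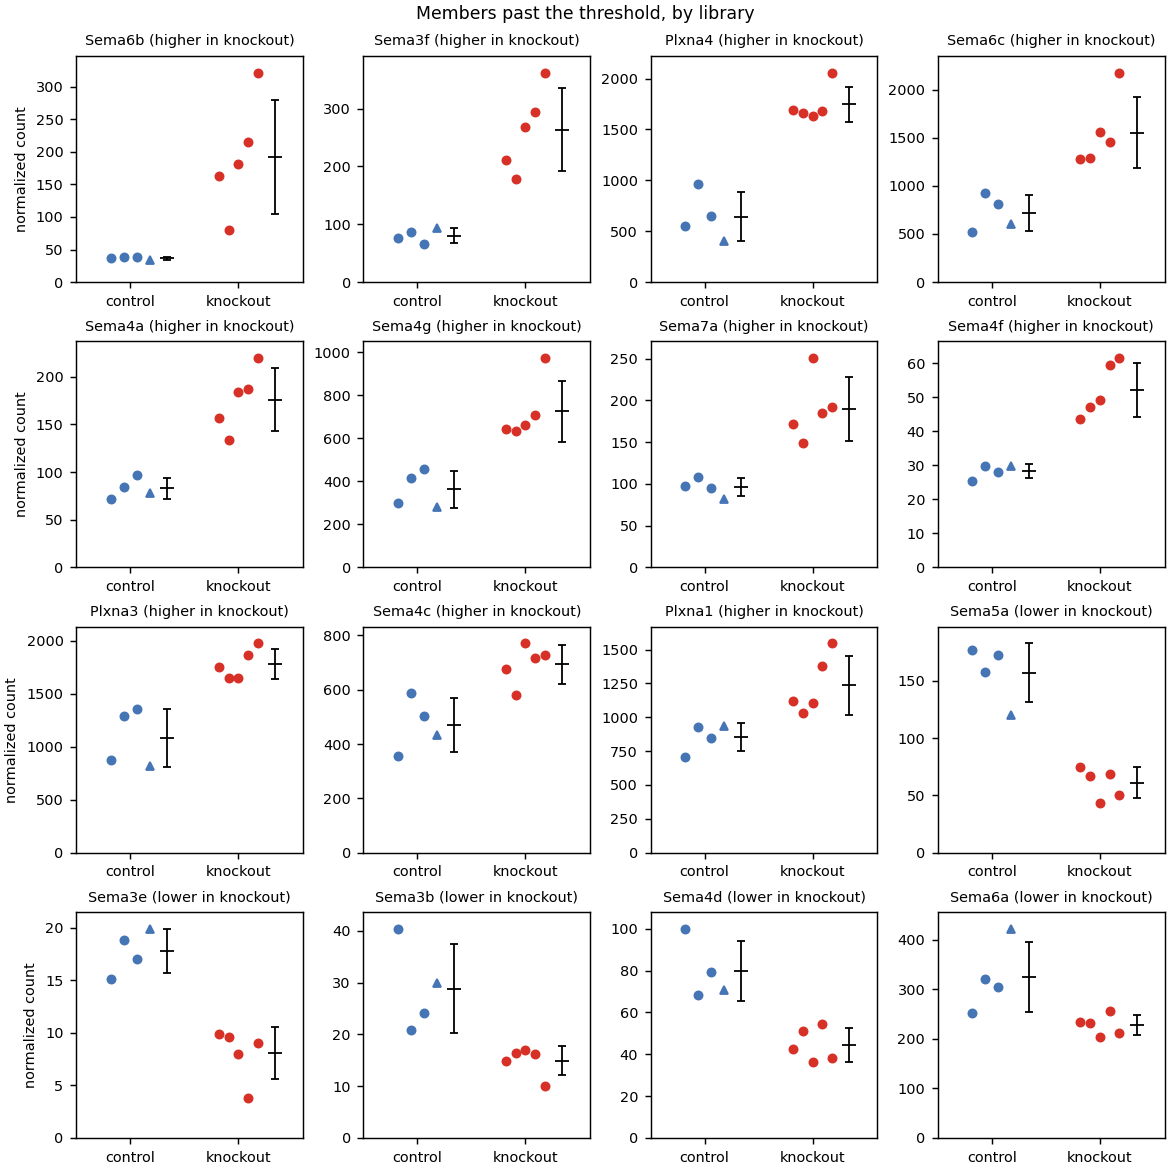
Normalized count of the 16 members past the threshold by library, replicates in order from left to right; black marks give group means and SDs, and the triangle is control replicate 4, which has 1 floxed allele. The groups overlap for Sema4c and Sema6a and are apart in the other 14 panels.

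The receptors that rose were plexin A genes: 3 of 4 passed and 0 fell. Of all genes tested 17.2% rose and 17.3% fell, and 4 genes are few for such a comparison. Plexin A proteins are the signalling partners of neuropilins and the direct receptors of class 6 ligands. Plxna4 (ENSMUSG00000029765, chr6:32144268-32588192) rose most, from 547, 966, 654 and 408 normalized counts in control to 1695, 1661, 1634, 1679 and 2056 in knockout (log2 fold change 1.5, SE 0.201, adjusted p = 0.000408). Knockout replicates 1 to 4 were close together, replicate 5 was higher, and all were well above the highest control. Plxna3 (ENSMUSG00000031398, chrX:74329066-74344689) went from 872, 1291, 1354 and 821 to 1754, 1650, 1647, 1865 and 1977 (0.74, SE 0.143, adjusted p = 0.00162). Plxna1 (ENSMUSG00000030084, chr6:89316314-89362620) went from 707, 927, 850 and 935 to 1120, 1031, 1103, 1382 and 1546 (0.52, SE 0.126, adjusted p = 0.00556). Neither overlapped between groups. Plxna2 was already high in control, at 2592, 4304, 3510 and 3121, and was at 3700 to 4296 in knockout (0.24, adjusted p = 0.134). Control replicate 2 held the highest Plxna2 of all 9 libraries, and without it the gene passed (0.37, adjusted p = 0.0182). In control, Plxna4 and Plxna3 were lower in replicates 1 and 4 than in replicates 2 and 3. The summed neuronal markers showed the same split, 17390 and 18220 against 21950 and 21300, but not every marker in the list did. Tubb3, Dcx, Map2, Elavl3 and Elavl4 had it, Gap43 and Nefl had the opposite, and the other markers had neither. The part of neuronal content in the Plxna4 and Plxna3 values was not tested.

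The neuropilins, the ligand-binding partners of plexin A, did not pass. Nrp1, which also binds VEGF, was at 409, 328, 289 and 244 in control and 290, 309, 228, 261 and 282 in knockout (log2 fold change -0.20, adjusted p = 0.291). Nrp2 (ENSMUSG00000025969, chr1:62703285-62818695), which NKX2-1 is known to repress in MGE-derived neurons, was at 150, 25.8, 33.2 and 53.8 in control and 103, 54.8, 67.2, 178 and 206 in knockout (1.04, SE 0.603, adjusted p = 0.221). Control replicate 1, the library with the highest cortical marker sum (3718), was the sole control above the lowest knockout. Without that library the log2 fold change of Nrp2 was 1.55 (adjusted p = 0.0336), and with control replicates 2 and 3 only it was 1.83 (adjusted p = 0.0468). The highest Nrp2 values in knockout, in replicates 4 and 5, came with the highest cortical marker sums of that group, 714.7 and 1003 against 364.1 to 375. Their part in the result was not tested. Nrp2 was the other member with TCF/LEF letters upstream, at chr1:62703161-62703187, plus strand, position -146, in capitals:
Nrp2: ggcaccttaaCTTTGATcgcgcggccg

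**Figure D3:**
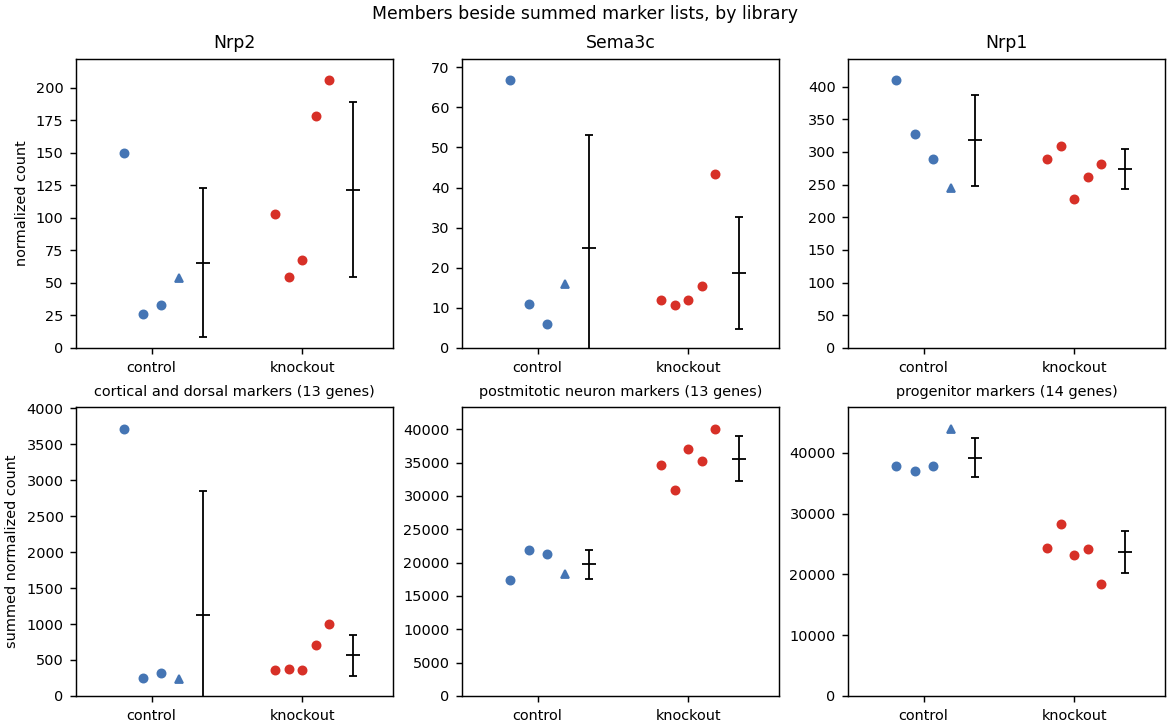
Normalized count of Nrp2, Sema3c and Nrp1 in each library (top) and summed normalized count of 3 marker lists (bottom). Replicates run from left to right, the triangle is control replicate 4, black marks give group means and SDs, and SD bars that would pass below 0 end at the axis. Nrp2, Sema3c and the cortical sum are all high in control replicate 1, where the cortical sum is 3718.

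None of the plexin B, C or D genes passed. Plxnb2, the receptor of Sema4c and the most abundant member per length, was at 2947, 3536, 3410 and 2720 in control and 2610 to 2778 in knockout (log2 fold change -0.21, SE 0.0904, adjusted p = 0.0887). Without control replicate 4 it passed as lower (-0.28, adjusted p = 0.0419), and with control replicates 2 and 3 only it was at -0.35 (adjusted p = 0.0116). Plxnb1, the receptor of Sema4d, was at 1785 to 2687 and 2388 to 2822 (0.20, adjusted p = 0.207). Plxnc1 was at 180, 316, 306 and 273 in control and 320 to 378 in knockout. All knockouts were above all controls for Plxnc1, yet adjusted p was 0.0590; without control replicate 2 it was 0.0304 and without control replicate 3 it was 0.0441. Plxnd1, the Sema3E receptor of blood vessels and some neurons, was at 159 to 217 and 182 to 234 (0.09, adjusted p = 0.590).

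Levels were compared between genes as normalized counts per kb of annotated exon. In control, the most abundant receptor was Plxnb2 at 408 ± 49.7 (SD, n = 4), apart from Plxnb1 at 237 ± 48.6. Plxnb1, Plxna2 (197 ± 42) and Plxna3 (138 ± 35.1) followed, with the SD ranges of neighbours meeting. Plxna1, whose range also met that of Plxna3, was at 94.4 ± 11.7 and Plxna4 at 45.6 ± 16.8, and Nrp1, Plxnc1 and Plxnd1 lay between 25.9 and 32.5. Nrp2 was at 5.54 ± 4.83 and Plxnb3 at 0.232 ± 0.199. In knockout, Plxnb2 was still highest at 352 ± 10.4 (SD, n = 5). Plxna3, at 226 ± 18.1, was within the SD of Plxna2 (229 ± 14), and Plxna4, at 124 ± 12.4, within that of Plxna1 (136 ± 24.1).

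Among ligands, Sema5b led in control at 192 ± 32.4 per kb, above Sema6c (120 ± 31.3) and Sema4c (102 ± 21.5). In knockout Sema6c led at 261 ± 62.1, above Sema5b at 167 ± 12.6 and Sema4c at 151 ± 15.7. Sema6b went from rank 12 to rank 7 of 20 and Sema5a from rank 13 to rank 15. Class 3 genes other than Sema3f were low in both groups: no mean exceeded 6.03 per kb in control or 4.85 in knockout.

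**Figure D4:**
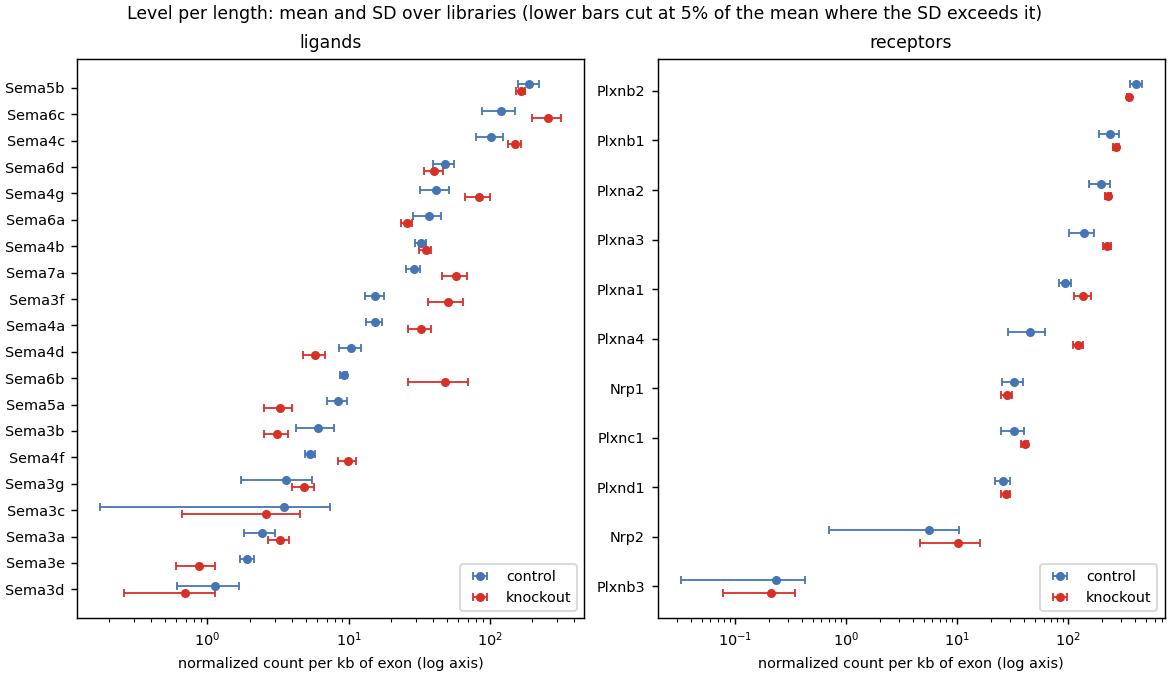
Mean normalized count per kb of exon (log axis) with SD, control in blue (4 libraries) and knockout in red (5), genes ordered by the control mean. Sema6b, Sema3f and Plxna4 lie far to the right of their control points, and the wide bars of Sema3c and Nrp2 in control come with 1 high library; the lower bar of Sema3c ends at 5% of its mean.

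Added up by class, the ligand sum per kb was 686 ± 92.7 in control and 988 ± 127 in knockout, and the receptor sum 1216 ± 186 and 1442 ± 78.2. Class 5 made up 27.4% to 31% of the ligand sum in the controls and 14.6% to 22.2% in the knockouts. Class 6 made up 30.1% to 32.5% and 35.4% to 42.5%, and class 4 29.5% to 30.8% and 30.6% to 33.2%. Of the receptor sum, plexin A made up 36.0% to 41.3% in the controls and 48.5% to 50.3% in the knockouts, and plexin B 52.0% to 54.1% and 41.8% to 44.5%. Plexin B exceeded plexin A in each control and plexin A exceeded plexin B in each knockout. Shares of a sum are tied to each other, and these are descriptions without a test. The plexin B sum itself was 645.5 ± 96.45 per kb in control and 620.6 ± 27.04 in knockout. The plexin A sum was 474.5 ± 93.92 and 715.2 ± 44.25, and the class 5 sum 200.2 ± 32.48 and 170.1 ± 12.84.

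**Figure D5:**
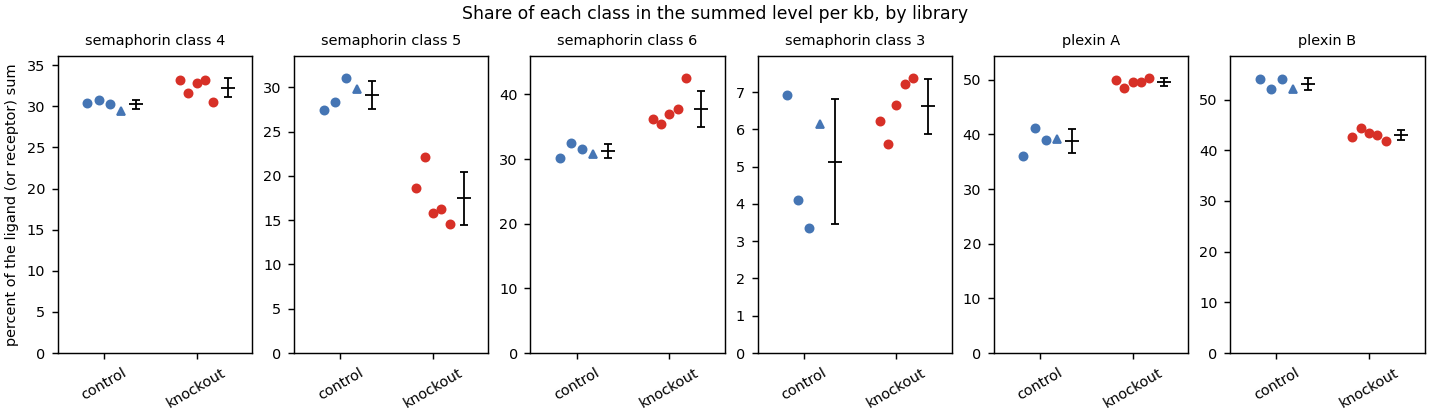
Share of each class in the summed level per kb of all ligands (first 4 panels) or all receptors (last 2), by library; black marks give group means and SDs and the triangle is control replicate 4. Plexin A averages 38.8% in control and 49.6% in knockout, plexin B 53.1% and 43.1%, and the groups do not overlap in either panel.

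Known ligand and receptor partners can be set side by side, each with its own call. Sema6b, a ligand of plexin-A4, and Plxna4 both rose, while Sema6a, another ligand of plexin-A4, fell. Sema3f rose and its receptor gene Nrp2 had 1.04 with an adjusted p of 0.221. Sema4d fell and Plxnb1 did not pass; Sema4c rose and Plxnb2 did not pass. Sema3e fell and Plxnd1 did not pass. Sema5a fell, and Plxna1 and Plxna3 rose.

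Within the knockout group, replicate 5 was the highest library for 9 of the 11 members that rose, and replicate 2 was the lowest for 7 of them. Replicate 5 also had the lowest Ctnnb1 (55.7% of the control mean) and the highest neuronal marker sum (40100). Its cortical sum (1003) and its pericyte and meningeal sum (4042) were the highest of the group as well. Replicate 2 had the highest Ctnnb1 (77.9%) and the lowest neuronal marker sum (30880). With 5 libraries no correlation was tested, and the part of these lists in the member values was not tested. Leaving out any 1 library left 11 to 13 members higher and 5 to 7 lower. Over all genes, the same fits had 1857 to 2390 higher and 1686 to 2417 lower, of 13723 to 13808 tested.

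Partner receptors and signalling genes of the pathway were taken from a list of 59. That list was made with earlier results of these data known, so its shares are descriptions only. Of 57 tested, 21 rose and 2 fell (40.4%, against 34.5% of all genes); the share that rose was 36.8% against 17.2%, and the share that fell 3.51% against 17.3%. Their median log2 fold change was 0.20. Nrcam, an L1-family adhesion molecule that associates with neuropilin-2, was at 335 to 442 in control and 686 to 933 in knockout (1.06, SE 0.109, adjusted p = 3.17e-05). The 5 rising genes with the smallest p also included 4 of cytoskeletal signalling. Pak1, a kinase downstream of Rac, was at 640.1 to 650.6 in control and 861 to 1223 in knockout (0.68, SE 0.10). Limk2, a kinase that phosphorylates cofilin, rose by 0.77. Cdk5r1, the p35 activator of CDK5, was at 1350 to 2215 and 3099 to 4191 (1.0, SE 0.148). Crmp1, a collapsin response mediator, rose by 0.74. Leaving out control replicate 4 brought the number that fell to 0, and leaving out control replicate 2, knockout replicate 3 or knockout replicate 5 brought it to 1.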

How the data were processed

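The data are 9 mouse RNA-seq libraries. The deposited table holds 1 signal value per gene and library. Values above 0 in a library were whole multiples of 1 step within 0.01, as if the authors had divided its reads by a common factor. That step, and the read totals that follow from it, are inferred from the values and were not checked against reads. The submitters' processing notes name mm10, DESeq2, HTSeq 0.9.1, TopHat2 2.1.1 and R 3.4.0. The sources used here name no annotation or strand setting, so annotated opposite-strand genes could share reads with Sema4c, Plxna1, Plxna4 and Plxnb1. The values were analysed as deposited, without a count model. Symbols were matched for 48058 of 48526 identifiers; exon lengths and positions come from GENCODE M21, on the same build.

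Groups were compared on log2(normalized count + 1) with limma 3.58.1, using its trend and robust options, in R 4.3.3 with statmod 1.5.0. Genes needed a mean of 10 or more; tests were two-sided, with Benjamini-Hochberg adjustment over all of them and a threshold of 0.05. Other pseudocounts, filters, scalings, weights and sets of libraries were tried as alternatives. Fold changes on that scale understate those of low genes. On simulated data for 13780 genes, the test found 100% of 50 genes set to log2 changes of 2, 100% of 50 at -2, 96% of 50 at 1 and 86% of 50 at -1, with 6 false calls. In that simulation the spread depended on the mean alone, libraries were independent and few genes changed. It had no outlying library such as control replicate 1, so its rates need not hold for these data. The members, the pathway list and the marker lists were chosen with earlier results of these data known. All members were named, with up to 5 pathway genes per direction by p (those that fell are not reported here by name); Itgb1, Lhx6, Olig1 and Olig2 were added after their values were seen. No 2 libraries of a group agreed within sampling noise (smallest chi-square per degree of freedom 3.58).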

Additional observations from a re-analysis of the deposited data

Results flagged for a closer look

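In all, 4 values stood far from the other libraries of their group, out of 78 groups screened, and chance alone marks about 5% of groups. Sema3c was at 66.7 normalized counts in control replicate 1, with the next control at 15.9, and at 43.3 in knockout replicate 5, with the next knockout at 15.3. Sema4g was at 973 in knockout replicate 5, above the next at 709.9. Plxna4 was at 2056 in the same library, above the next at 1695. Knockout replicate 5 thus accounts for 3 of the 4 values.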

How the results depend on the processing

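Of the 11 members that rose, 10 passed under every alternative that could test them (Sema4c missed with control replicates 2 and 3 only), and of the 5 that fell, 3 did, Sema4d, Sema5a and Sema6a. Sema3b and Sema3e, with means under 50, were not testable at a minimum mean of 50, which left 3 members and 3 ligands lower. With no filter, 5 receptors were higher (Plxna2 and Plxnc1 added) and 0 pathway genes lower. With library quality weights, and with control replicates 2 and 3 only, 1 receptor, Plxnb2, was lower. The number of pathway genes that fell was 1 without trend or robust and 1 with control replicates 2 and 3 only. Over all genes, 1387 were higher and 1112 lower with control replicates 2 and 3 only, against 2369 and 2380. With 1 library left out, 1857 to 2390 of all genes were higher and 1686 to 2417 lower. Leaving out 1 library gave 11 to 13 members higher and 5 to 7 lower, 8 ligands higher in each case and 5 to 6 lower, 3 to 5 receptors higher and 0 to 1 lower, and 17 to 20 pathway genes higher and 0 to 3 lower; Ctnnb1 ranged from -0.59 to -0.47. Without control replicate 2, receptors higher were 5; without control replicate 4, receptors lower were 1 and pathway genes lower 0. The log2 fold change of Sema3c turned positive with quality weights (0.21), without control replicate 1 (0.594), without knockout replicate 1 (0.046), 2 (0.084) or 3 (0.041), and with control replicates 2 and 3 only (0.89); leaving out 1 library, it ranged from -0.496 to 0.594. That of Plxnb1 was -0.054 with control replicates 2 and 3 only. None of these passed, and the cause was not tested. The replicate numbers shared by the groups were taken as a block in 1 alternative: pathway genes lower were then 0, and Sema3b had adjusted p = 0.0717. Deviations of same-numbered libraries correlated at -0.12, -0.09, 0.14 and -0.04, and not every library correlated best with its own number, so the numbers were not taken to pair the samples. Scaling moved the median of all genes by under 0.1. Low counts limit Sema3d, Sema3e and Plxnb3.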

Other observations

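The positions of the members hold 1 pair of close neighbours with opposite calls. Sema3b (chr9:107597674-107609229, mm10) and Sema3f (chr9:107681500-107710475) lie on the same strand with 72.3 kb between them, and Sema3b was lower (log2 fold change -0.88) while Sema3f was higher (1.67). On chromosome 5, Sema3d, Sema3a and Sema3e follow each other with gaps of 536 and 423 kb, and Sema3c lies 3320 kb further on. Of these 4 class 3 genes, Sema3e fell, Sema3a and Sema3c did not pass and Sema3d was not tested. Their group means were at most 3.49 normalized counts per kb. On the X chromosome, Plxna3 rose, and Plxnb3, 557 kb away, was near 0 in all libraries. Some neighbours further apart had the same call: Sema4a (1.07) and Sema6c (1.12), 6700 kb apart on chromosome 3, and Sema4f (0.85) and Plxna1 (0.52), 6380 kb apart on chromosome 6, were all higher.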
